A study of Mus musculus with 15 samples.

Results

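The genes described are 10 cell-cycle inhibitors, pocket proteins and members of the p53 pathway, traced through 9 lists of chromatin regions. They are the Cip/Kip inhibitors Cdkn1a, Cdkn1b and Cdkn1c, the INK4 inhibitors Cdkn2a and Cdkn2b, the pocket proteins Rb1, Rbl1 and Rbl2, and Trp53 with its antagonist Mdm2. They were chosen by name, as 10 of 22342 protein-coding genes on the autosomes and chromosome X, with earlier results of these data known. For each gene, the regions overlapping its body plus 20 kb on each side in mm9 were collected. The windows of Cdkn2a and Cdkn2b overlap, so the 10 genes make up 9 separate loci and regions shared by both windows were counted once.

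All αTN4 cells were mouse lens epithelial cells transformed with SV40 T-antigen. The control cells carried a control shRNA and the knockdown (KD) cells a Pax6 shRNA, each delivered by lentivirus, and both were puromycin-selected pooled populations rather than single clones. Control cells were profiled for Pax6, RNA polymerase II (Pol2), H3K4me1, H3K4me2 and H3K4me3, Pax6 KD cells for the 3 histone marks, and whole newborn CD-1 lenses (postnatal day 1) for H3K4me2. Each condition had 1 library, so differences between lists have no replicate check and no p-value is given. By the paper's account, the KD chromatin came from whichever of its Pax6 shRNA lines had the larger reduction of Pax6. The paper's RNA-seq comparison used the other line. RNA-seq libraries were not analysed here.

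The lists held 504 Pax6 peaks, 17204 Pol2 peaks, 38007 and 18417 H3K4me1 islands (control and Pax6 KD), 66274 and 65852 H3K4me2 peaks, 14869 and 14301 H3K4me3 peaks, and 56214 lens H3K4me2 peaks. The depth of the peak libraries is unknown. The H3K4me1 islands held 3289553 ChIP reads in control and 1849269 in Pax6 KD cells. Promoter H3K4me2 was listed at 7 of 13 lens markers in control cells, with Foxe3, Bfsp1, Bfsp2, Lim2, Mip and Crygs at none, and at 12 of 13 in the lens, with Crygs at none. The lens list also marked promoters of the retinal neuron genes Crx, Nrl and Pou4f2, none of which was marked in control cells. Of endothelial, leukocyte and pigment cell markers it marked 3 of 4, 1 of 5 and 1 of 4, where control cells had 2, 2 and 0. In the labels, the antibodies given for the Pax6 and Pol2 libraries are exchanged relative to their titles, and the titles were followed.

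Cyclin-dependent kinases drive cells through the cycle by phosphorylating the pocket proteins Rb1 (Rb), Rbl1 (p107) and Rbl2 (p130), which otherwise hold E2F factors in check. INK4 proteins block Cdk4 and Cdk6, and Cip/Kip proteins block a broader set of cyclin-kinase complexes. The p53 protein, encoded by Trp53, activates Cdkn1a and Mdm2 after damage, Mdm2 marks p53 for degradation, and the Arf product of Cdkn2a restrains Mdm2. SV40 large T antigen binds both the pocket proteins and p53, and control and KD cells both derive from the transformed line. In the lens, withdrawal from the cell cycle accompanies the differentiation of epithelial cells into fibers, where Cdkn1b and Cdkn1c are known to be expressed. H3K4me3 typically marks active promoters, H3K4me2 promoters and enhancers, and H3K4me1 enhancers and the flanks of promoters.

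The sequences shown are the 250 bases of mm9 that end just before the most upstream annotated start of each promoter, on the gene's strand. For Arf and Rbl1 this start lies slightly upstream of the reference start from which distances in kb are measured. They are given for both starts of Cdkn2a, and for Cdkn1a, Cdkn1b, Rb1, Rbl1 and Mdm2, whose promoter H3K4me1 calls differed between control and Pax6 KD cells. The stretch before Trp53 overlaps an exon of Wrap53 and is not shown. Capitals mark matches, on either strand, to an E2F-like word (TTTCCCGC, TTTGGCGC, TTTCGCGC or TTTGGCGG), to the cell-cycle homology region CHR (TTTGAA) or to a GC box (GGGCGG).
Cdkn2a, Ink4a start (chr4:88928097-88928346, minus strand): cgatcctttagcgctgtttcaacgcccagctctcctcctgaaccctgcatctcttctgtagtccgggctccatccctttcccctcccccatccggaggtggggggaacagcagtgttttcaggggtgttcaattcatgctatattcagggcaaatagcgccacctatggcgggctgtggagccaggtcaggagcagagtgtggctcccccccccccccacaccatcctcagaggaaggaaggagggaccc
Cdkn2a, Arf start (chr4:88940558-88940807, minus strand): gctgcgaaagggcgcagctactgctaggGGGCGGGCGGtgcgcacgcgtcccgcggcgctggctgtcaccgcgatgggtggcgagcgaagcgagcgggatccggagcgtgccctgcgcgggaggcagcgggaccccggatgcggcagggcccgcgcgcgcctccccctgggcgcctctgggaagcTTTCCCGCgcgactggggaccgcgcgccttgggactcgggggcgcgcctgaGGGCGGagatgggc
Cdkn1a, Cdkn1a-001 start (chr17:29230467-29230716, plus strand): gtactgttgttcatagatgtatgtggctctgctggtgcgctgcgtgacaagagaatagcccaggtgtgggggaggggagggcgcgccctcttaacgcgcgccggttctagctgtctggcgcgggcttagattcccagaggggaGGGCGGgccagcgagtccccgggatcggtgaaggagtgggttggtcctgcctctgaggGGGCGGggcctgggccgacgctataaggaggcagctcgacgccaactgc
Cdkn1b (chr6:134870169-134870418, plus strand): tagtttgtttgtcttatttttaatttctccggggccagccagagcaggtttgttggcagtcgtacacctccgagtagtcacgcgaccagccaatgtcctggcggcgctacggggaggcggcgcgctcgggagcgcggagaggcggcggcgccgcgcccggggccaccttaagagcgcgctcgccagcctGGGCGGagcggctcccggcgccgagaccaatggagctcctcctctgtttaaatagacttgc
Rb1 (chr14:73725630-73725879, minus strand): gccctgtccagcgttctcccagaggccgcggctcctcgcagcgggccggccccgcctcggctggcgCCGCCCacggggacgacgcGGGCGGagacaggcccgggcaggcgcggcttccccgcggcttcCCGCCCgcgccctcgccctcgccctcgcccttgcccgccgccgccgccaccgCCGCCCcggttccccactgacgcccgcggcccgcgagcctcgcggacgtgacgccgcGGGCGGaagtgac
Rbl1 (chr2:157030271-157030520, minus strand): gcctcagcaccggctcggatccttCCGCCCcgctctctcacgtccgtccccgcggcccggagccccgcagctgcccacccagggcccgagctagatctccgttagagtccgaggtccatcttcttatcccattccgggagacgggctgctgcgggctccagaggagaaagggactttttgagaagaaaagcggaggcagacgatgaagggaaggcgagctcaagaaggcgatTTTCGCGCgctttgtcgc
Mdm2 (chr10:117147815-117148064, minus strand): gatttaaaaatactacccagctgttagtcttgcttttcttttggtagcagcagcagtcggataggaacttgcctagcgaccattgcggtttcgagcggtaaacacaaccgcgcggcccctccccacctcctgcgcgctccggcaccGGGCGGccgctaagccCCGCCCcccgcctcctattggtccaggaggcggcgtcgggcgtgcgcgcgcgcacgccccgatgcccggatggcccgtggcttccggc

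The starts of Cdkn2a differed in sequence. Upstream of the Ink4a start there was no match to any of these words, while upstream of the Arf start there were an E2F-like word and 3 GC boxes. Over 500 bases on each side, the Ink4a start had 52.5% G+C and a ratio of observed to expected CpG of 0.54, and the Arf start 67.0% and 0.98, against medians of 55.1% and 0.54 over 45993 protein-coding starts. For the members, 11 starts were searched: a reference start of each gene and the Ink4a start. Their other annotated starts were left out, whereas the shares of all starts count every distinct protein-coding start. E2F-like words were found at 2 of 11 member starts, the Arf start (TTTCCCGC) and Rbl1 (TTTCGCGC), 65 and 18 bases before the most upstream annotated start, and at 2.34% of all starts. GC boxes were found at 7 of 11 member starts and 41.1% of all starts, and CHR words at 2 of 11 (Cdkn2b and Rbl2) and 13.5%. No E2F-like word overlapped a GC box at these starts. These are matches of letters, not sites shown to be bound.

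At their promoters, 9 of the 10 genes carried Pol2, H3K4me3 and H3K4me2 in control cells, and Cdkn1c carried none of them. A gene was counted as marked where a listed region came within 2 kb of any of its protein-coding starts. Over all protein-coding genes, 48.0% had such a Pol2 peak, 49.1% H3K4me3 and 58.2% H3K4me2. In Pax6 KD cells the same 9 genes had H3K4me3 (47.8% of all genes) and H3K4me2 (57.1%), and in the lens all 10 had H3K4me2 (66.8%). Promoter H3K4me1 was listed at 5 of 10 in control cells (36.0% of all genes) and at 1 of 10 in Pax6 KD cells (16.8%). The strength of a region is given below as its percentile by fold enrichment within its own list, since folds from different lists cannot be compared. Among the 9 marked genes the strongest promoter peak ranged from percentile 33.6 to 95.2 for Pol2 and from 28.6 to 97.3 for H3K4me3, with medians of 80.8 and 74.7, while all genes with such a peak had medians of 70.6 and 66.8.

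**Figure D1:**
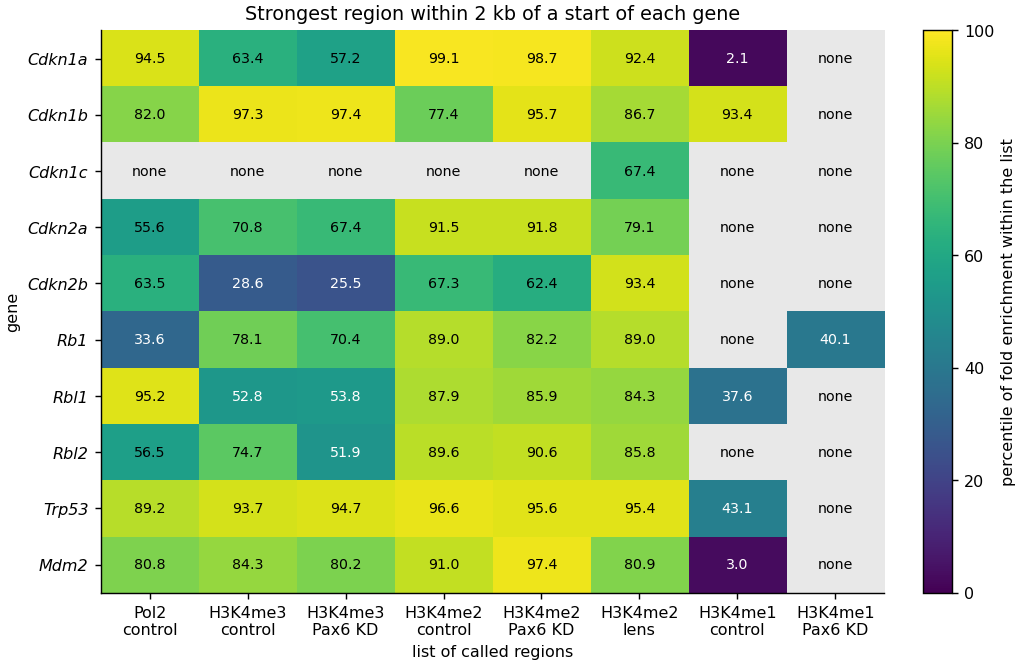
Percentile by fold enrichment of the strongest region within 2 kb of a start of each gene (rows) in each list (columns); the color scale runs from 0 to 100 and grey cells have no listed region. Cdkn1c is grey in every αTN4 list and at 67.4 in the lens, and the Pax6 KD H3K4me1 column is filled for Rb1 alone, at 40.1.

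Cdkn1a (p21), the inhibitor best known as a p53 target, was among the members with the highest-ranked promoter Pol2 and H3K4me2 in control cells (chr17:29227924-29237667, plus strand). At the start of its transcript Cdkn1a-001 the Pol2 peak spanning the start was at percentile 94.5 and 2 weaker Pol2 peaks followed within 1.8 kb, at 21.9 and 38.8. The H3K4me2 peak from 0.6 kb upstream to 2.5 kb downstream was at 99.1 in control and 98.7 in Pax6 KD cells and at 92.4 in the lens. H3K4me3 was of middle rank, at 63.4 in control and 57.2 in KD cells. The annotated start of Cdkn1a-003, which lies further upstream, had no Pol2, H3K4me2 or H3K4me3 region within 2 kb in any list. A second site stood 15.7 to 14.2 kb upstream, where Pol2 (66.6), H3K4me2 (91.4 in control, 83.8 in KD cells and 68.5 in the lens) and a weak H3K4me3 peak (12.7 in control, 11.6 in KD cells) lay within an H3K4me1 island listed in both αTN4 conditions. The annotated start of Gm16197, a long noncoding RNA gene on the minus strand, lies in this site, so its marks cannot be assigned to Cdkn1a alone. Cdkn1a is the only protein-coding gene of the window. The lens list held 3 further peaks upstream, of percentiles 34.9 to 49.5, that had no control counterpart.

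The p53 response element was searched as a pair of adjoining elements, 20 bases in all, with every core base matched and at most 1 other mismatch, within 3 kb of the starts. Such a pair was present at 0.911% of all protein-coding starts and at 2 of the 11 member starts, Cdkn1a and Cdkn2b. They are shown as the only matches at these 11 starts, and capitals mark the core bases. Other annotated starts of the members were not counted here.
Cdkn1a (chr17:29227873-29227892, 2.8 kb upstream of Cdkn1a-001): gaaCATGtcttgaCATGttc
Cdkn2b (chr4:88954309-88954328, minus strand, 2.6 kb into the gene): agaCATGtccggtCTTGctc
The Cdkn1a pair lay outside every listed region. The Cdkn2b pair lay inside a weak control Pol2 peak (percentile 18.4) and inside H3K4me2 peaks of control (67.3) and KD cells (62.4). A pair without any mismatch was found at 0 of the 11 starts and at 0.0848% of all starts.

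Cdkn1b (p27) had the highest-ranked promoter H3K4me3 of the 10 genes and a long marked domain behind the gene (chr6:134870419-134875531, plus strand). Its promoter H3K4me3 was at percentile 97.3 in control and 97.4 in Pax6 KD cells. In control cells 1 peak of 3011 bp spanned the start, and in KD cells the same stretch was listed as 3 peaks. Pol2 was at 82.0 over the start and at 87.3 in a further peak 6.4 to 8.4 kb downstream, beyond the end of the gene. That downstream stretch also carried H3K4me3 (25.2 in control, 22.2 in KD cells) and H3K4me2 at 97.4 in control and 92.8 in KD cells, with lens H3K4me2 at 85.8. No other protein-coding gene lies in the window. In the lens, a peak 3.9 to 2.6 kb upstream (84.6) had no counterpart in αTN4 cells.

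Cdkn1c (p57), an imprinted inhibitor, differed from the other members (chr7:150644255-150646955, minus strand). No H3K4me3 or H3K4me2 region lay within 2 kb of its start in control or Pax6 KD cells, nor any Pol2 peak in control cells. The nearest Pol2 and H3K4me3 peaks of control cells were 87266 and 87028 bp away. The αTN4 regions nearest to it were an H3K4me2 peak 2222 bp from the start (percentile 38.6 in control and 42.7 in KD cells) and, in control cells, an H3K4me1 island 2046 bp from it, just outside the promoter distance. The nearest H3K4me1 island of KD cells was 55446 bp away. In the lens, an H3K4me2 peak of 2682 bp covered nearly the whole gene (fold 12.9, percentile 67.4). All genes with a lens promoter peak had a median of 86.4. In the window, 4 more lens peaks, of percentiles 47.6 to 72.8, lay between 4.4 kb upstream and 23.4 kb downstream of the start. None of the 5 lens peaks overlapped a control peak, and neither control peak overlapped a lens peak. Genes with promoter H3K4me2 in the lens and none in control cells made up 11.7% of all protein-coding genes. Whole lenses hold fiber cells as well as epithelium, and the lens list also marked the retinal and endothelial markers given above. Their part in this difference was not tested. In a bulk sample, a mark in few cells and a weak mark in many cannot be told apart.

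**Figure D2:**
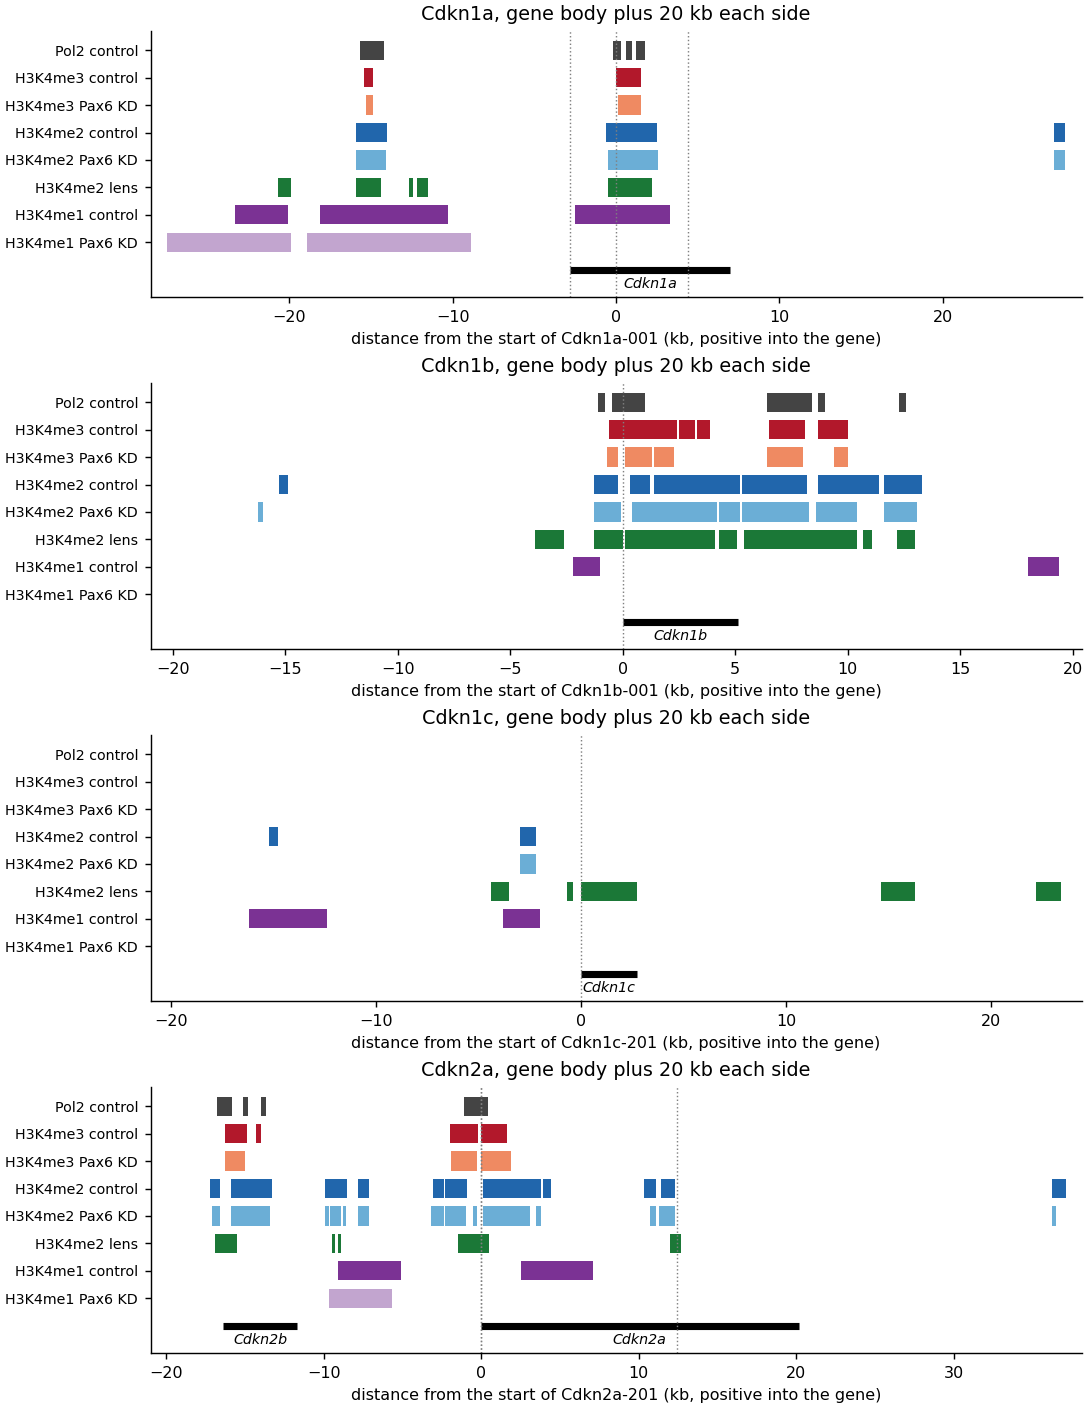
Listed regions (bars, 1 row per list) around 4 inhibitor genes, by distance in kb from the reference start, with gene bodies in black and annotated protein-coding starts as dotted lines. Cdkn1a shows a second marked site about 15 kb upstream, Cdkn1b a domain behind the gene, Cdkn1c marks at its start in the lens row only, and Cdkn2a Pol2 and H3K4me3 at the Arf start but not at the Ink4a start to its right.

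Cdkn2a encodes 2 unrelated proteins from separate first exons, Arf, which acts on Mdm2, and Ink4a (p16), which blocks Cdk4 and Cdk6 (chr4:88920377-88940557, minus strand). The starts differed in their marks. The Arf start had a Pol2 peak (percentile 55.6) and H3K4me3 on both sides, at 70.8 on the gene side and 61.6 upstream in control cells, and at 67.4 and 40.8 in Pax6 KD cells. The Ink4a start had no Pol2 or H3K4me3 peak within 2 kb, and the nearest were 12062 and 10783 bp away in control cells. It did have H3K4me2, at 57.2 in control, 51.5 in KD cells and 58.3 in the lens. In αTN4 cells this H3K4me2 began 162 bp upstream of the start, and in the lens the peak spanned it.

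Cdkn2b (p15), next to Cdkn2a, had the lowest-ranked promoter H3K4me3 of the marked genes (chr4:88952198-88956941, minus strand). Its H3K4me3 was at percentile 28.6 in control and 25.5 in Pax6 KD cells, while Pol2 over the start was at 63.5. H3K4me2 at its promoter was at 67.3 in control and 62.4 in KD cells and at 93.4 in the lens. It was thus the member with the largest gap in rank between lens and control H3K4me2 among the 9 marked in both. Between Cdkn2a and Cdkn2b, an H3K4me1 island (percentile 85.3) was listed in control and again in KD cells, at 53.6. A second island (77.4), 2.5 to 7.1 kb from the Arf start and before the Ink4a start, was listed in control cells alone. A small H3K4me3 peak inside Cdkn2b (3.18) had no KD counterpart.

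The pocket-protein genes all carried promoter marks but differed in Pol2. Rbl1 (chr2:156971629-157030270, minus strand) had the highest-ranked promoter Pol2 peak of the members, at percentile 95.2, with middling H3K4me3 (52.8 in control, 53.8 in Pax6 KD cells). Rb1 (chr14:73583480-73725629, minus strand) had the lowest, at 33.6, with H3K4me3 at 78.1 in control and 70.4 in KD cells. A Pol2 peak of percentile 91.2 lay 87.1 to 88.2 kb inside Rb1, at the start of Lpar6, a gene within an Rb1 intron, and H3K4me3 (44.2 in control, 46.1 in KD cells) and H3K4me2 (78.4, 89.5 and 86.1 in control, KD and lens) lay there too. Which of the genes such regions serve cannot be told apart. Further H3K4me2 peaks inside Rb1 were listed in both αTN4 conditions and not in the lens, the strongest 71.2 to 73.0 kb from the start (74.4 in control, 77.4 in KD cells). Rbl2 (chr8:93593956-93647743, plus strand) had Pol2 at 56.5 and showed the largest drop in H3K4me3 rank, from 74.7 to 51.9. Its single control H3K4me3 peak of 1629 bp was listed as 3 peaks in KD cells, the strongest 517 bp wide. At all 3 pocket genes promoter H3K4me2 was between 82.2 and 90.6 in αTN4 cells and between 84.3 and 89.0 in the lens. All genes with such a peak had medians of 87.7 in control, 87.5 in KD cells and 86.4 in the lens.

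Trp53 (chr11:69393861-69405375, plus strand) ranked high for Pol2, H3K4me3 and H3K4me2. Pol2 over the start was at percentile 89.2, its strongest promoter H3K4me3 at 93.7 in control and 94.7 in Pax6 KD cells, and H3K4me2 at 96.6, 95.6 and 95.4 in control, KD and lens. The strongest control H3K4me3 peak lay 2.2 to 1.0 kb upstream and the strongest KD peak over the start. Wrap53 starts on the opposite side of this promoter, and the regions cannot be assigned to one of the genes. The lens window of Trp53 held 10 H3K4me2 peaks against 5 in control cells. The strongest lens peak without a control counterpart (99.3) lay 21.9 to 18.9 kb upstream of Trp53, at the promoter of Efnb3. A site shared by all 3 H3K4me2 lists (98.2, 90.6 and 95.4 in control, KD and lens) lay at Atp1b2, downstream of Trp53.

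Mdm2 (chr10:117125944-117147814, minus strand), which encodes the ubiquitin ligase of p53, had Pol2 at percentile 80.8 and H3K4me3 at 84.3 in control and 80.2 in Pax6 KD cells. H3K4me2 was at 91.0 in control, 97.4 in KD cells and 80.9 in the lens. Upstream of Mdm2 lay a stretch with H3K4me2 listed in αTN4 cells and not in the lens. Its peaks stood 8.4 to 6.6 kb upstream (75.7 in control, 57.7 in KD cells) and 11.4 to 10.5 kb upstream (60.4 and 42.5). H3K4me1, for which there was no lens list here, covered the same stretch in both αTN4 conditions, as 2 islands in control and 1 in KD cells.

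None of the 10 genes had a Pax6 peak in its window, nor within 50 kb of its body, while 2.09% of all protein-coding genes (468) had one in the same kind of window. The nearest Pax6 peaks lay between 253.0 kb (Rbl1) and 6660.6 kb (Cdkn2a) from the genes, with Cdkn1a at 359.0 kb and Trp53 at 730.7 kb. With 504 Pax6 peaks in the genome, a count of 0 among 10 genes is near that background.

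Promoter H3K4me3 and H3K4me2 stayed listed in Pax6 KD cells at every member that had them in control cells, 9 of 9 for each mark. Over all genes, 3.18% with control H3K4me3 at a promoter and 2.67% with H3K4me2 lost the call. By rank, H3K4me3 was lower in KD cells at 6 of 9 members and higher at 3, with a median change of -3.38 percentile points (-1.68 over 10619 genes), which became 0.10 when peaks were ranked by width. The members ranged from Rbl2 (-22.8), Rb1 (-7.78) and Cdkn1a (-6.15) to Trp53 (1.03). Among the members Rbl2 alone fell outside the middle range of all genes, whose quartiles were -8.71 and 4.12. H3K4me2 was lower at 5 and higher at 4, with a median of -0.47 (-0.99 over 12661 genes), which was above 0 under 3 other settings: 0.77 by −log10 q, 2.10 by width and 0.25 within 1 kb. The largest difference, at Cdkn1b (18.4), came with a KD peak that overlapped 2 separate control peaks. It lay outside the quartiles of all genes (-5.51 and 2.95), as did Rb1 (-6.84) and Mdm2 (6.47).

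**Figure D3:**
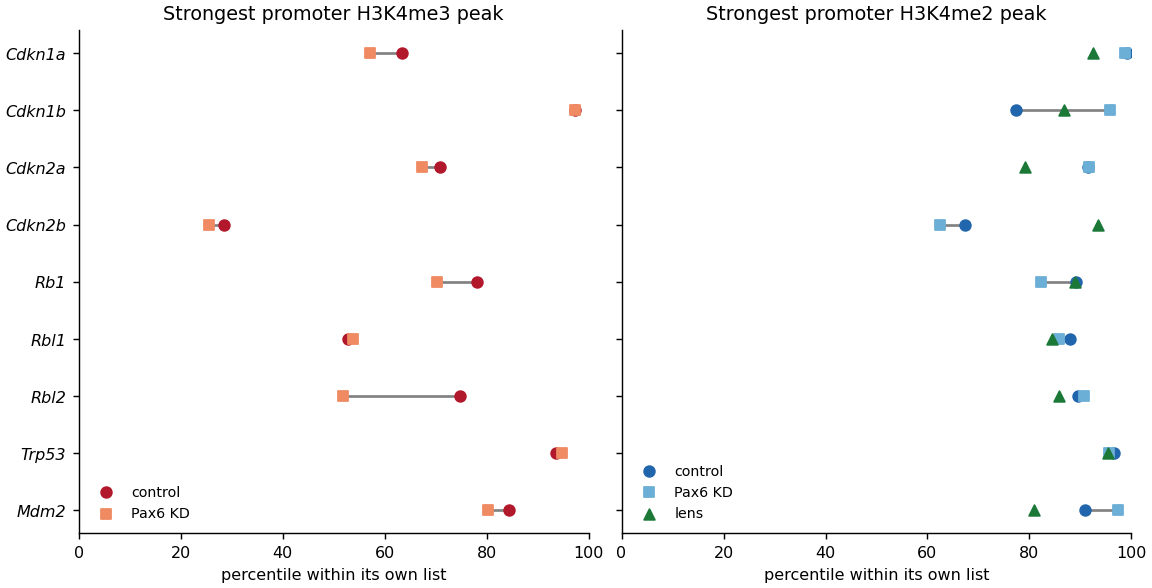
Percentile of the strongest promoter H3K4me3 peak (left) and H3K4me2 peak (right) of the 9 genes that had one in αTN4 cells, each within its own list: circles control, squares Pax6 KD, triangles lens. Rbl2 shows the longest H3K4me3 line (74.7 to 51.9), Cdkn1b the longest H3K4me2 line (77.4 to 95.7), and Cdkn2b the largest gap between lens (93.4) and control (67.3).

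Across the windows, the marks were kept to different degrees. Of 23 control H3K4me3 peaks, 19 overlapped a KD peak (82.6%, 95% Wilson interval 62.9 to 93.0), against 90.3% in the windows of all genes. The 4 without a KD counterpart were weak, between percentiles 0.33 and 7.24. Of these 2 lay inside Cdkn1b, 1 inside Cdkn2b and 1 at Atp1b2 in the Trp53 window. At members' promoters 13 of 13 control H3K4me3 peaks were kept (91.8% in all genes), and at no protein-coding promoter 3 of 6 (72.6%). Of 51 control H3K4me2 peaks, 45 were kept (88.2%, 76.6 to 94.5, all genes 84.0%). At members' promoters it was 21 of 21 (94.7%), and at no promoter 18 of 22 (76.7%). Of 27 control H3K4me1 islands, 11 were kept (40.7%, 24.5 to 59.3, all genes 47.0%). Over whole windows, the interval of each mark held the share of all genes. Intervals cover counting error only.

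At the members' promoters H3K4me1 was the mark with the most calls that differed between control and KD cells. Cdkn1a, Cdkn1b, Rbl1, Trp53 and Mdm2 had an island within 2 kb of a start in control cells, and 0 of these 5 had one in Pax6 KD cells. Over all genes with a control call, 56.5% lost it. Counted as islands, 0 of 7 at members' promoters overlapped a KD island (interval 0 to 35.4), against 42.6% of promoter islands in the windows of all genes. These 7 islands lay at 5 genes, with 2 each at Rbl1 and Trp53, so they are not independent of each other. Away from any protein-coding promoter, 8 of 12 were kept (66.7%, 39.1 to 86.2), against 49.2%. The lost promoter islands included weak ones, at percentile 2.1 for Cdkn1a and 2.98 for Mdm2, and a strong one at Cdkn1b (93.4, 24.2 reads per kb). Counted within 1 kb of a start, 2 members had a call in control cells and 1 in KD cells. Counted within 5 kb, it was 7 in control and 2 in KD cells. Rb1 was the only member with a promoter island in KD cells and none in control cells, 5.4 to 0.8 kb upstream at percentile 40.1, while 1.73% of all genes without a control call gained one. The KD list held 18417 islands against 38007 in control cells, and the part of this difference between the lists in the members' losses was not tested.

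By length, H3K4me1 in Pax6 KD cells covered 51477 bp of the windows against 92491 bp in control cells, or 55.7%, compared with 65.1% over the genome. The members differed widely. Cdkn1b, Cdkn1c, Rbl2 and Trp53 had 2600, 5600, 3400 and 13200 bp in control cells and 0 in KD cells. The total length in KD cells, wherever in the window it lay, was 39.1% of that in control cells at Rbl1, 46.5% in the Cdkn2a and Cdkn2b windows, 62.8% at Mdm2 and 79.1% at Cdkn1a. Rb1 had more in KD cells, 20800 against 16000 bp (130.0%), and all 4 of its control islands were kept. In the 11 kept islands, ChIP reads per kb of the overlapping KD and control islands were set against the median ratio of the 17559 islands kept genome-wide. On the log2 scale the ratio had a median of 0.16 and a range of -0.41 to 1.00, and a median of 0.78 over the 4 islands in gene bodies. The islands were called separately in each condition with different borders, so this ratio moves with island width and is no measure of gain or loss. It was between -0.41 and 0.16 for the 6 islands of which KD islands covered 93.8% or more, and between 0.23 and 1.00 for the 5 of which they covered 41.2 to 85.0%. The island at Lpar6 inside Rb1, with the highest ratio, held 65 ChIP reads over 3400 bp in control and 43 over 1400 bp in KD cells. The one inside Rbl1, 32.0 to 35.0 kb from its start and next to the pseudogene Gm14277, held 70 reads over 3000 bp and 64 over 1800 bp.

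**Figure D4:**
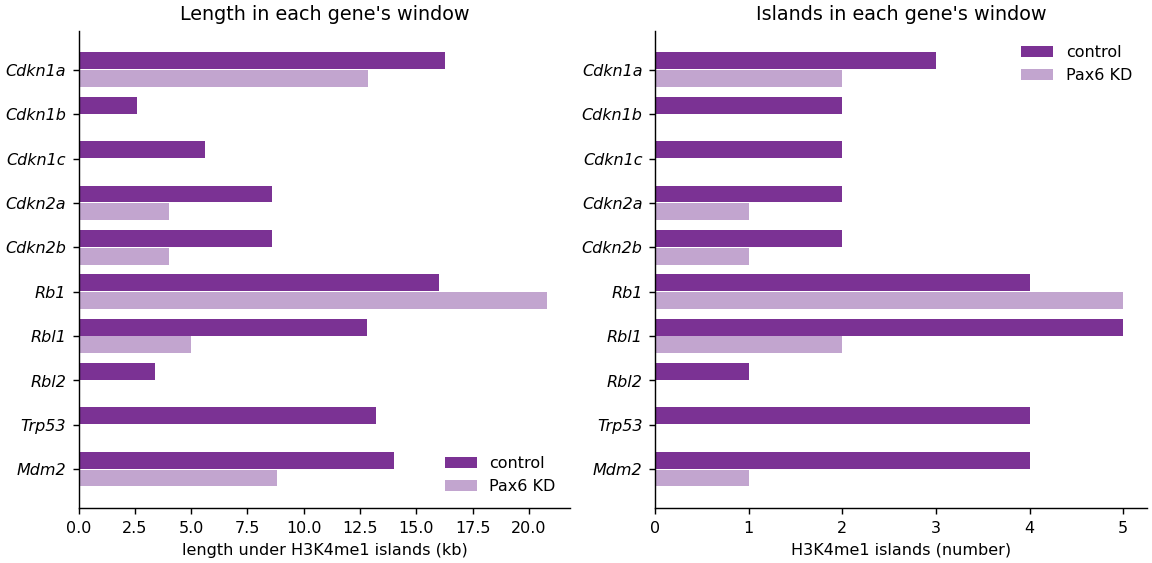
Length under H3K4me1 islands in kb (left) and number of islands (right) in each gene's window, in control (dark) and Pax6 KD cells (light); bars start at 0 and each is 1 library. Cdkn1b, Cdkn1c, Rbl2 and Trp53 have no KD bar, and Rb1 has the only KD bar longer than its control bar.

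Against the lens, the members' H3K4me2 was shared at promoters and mostly separate elsewhere. Of 51 control peaks in the windows, 30 overlapped a lens peak (58.8%, interval 45.2 to 71.2, all genes 48.7%), and of 47 lens peaks 27 overlapped a control peak (57.4%, 43.3 to 70.5, all genes 49.9%). At members' promoters 20 of 21 control peaks were shared (95.2%, 77.3 to 99.2, promoters of all genes 88.8%). At no protein-coding promoter it was 5 of 22 (22.7%, 10.1 to 43.4, all genes 21.0%). In the other direction, 15 of 17 lens promoter peaks had a control counterpart (88.2%, 65.7 to 96.7, all genes 75.0%), and the 2 that did not were both at Cdkn1c. Lens peaks at no promoter were shared in 7 of 20 cases (35.0%, 18.1 to 56.7, all genes 28.5%). Each of these intervals held the share of all genes. Rb1 held 6 control peaks without a lens counterpart in a window of 182.2 kb, and Cdkn2a and Mdm2 5 each in windows of 60.2 and 61.9 kb. All lens peaks of Cdkn2a, Cdkn2b and Rbl1 had a control counterpart.

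**Figure D5:**
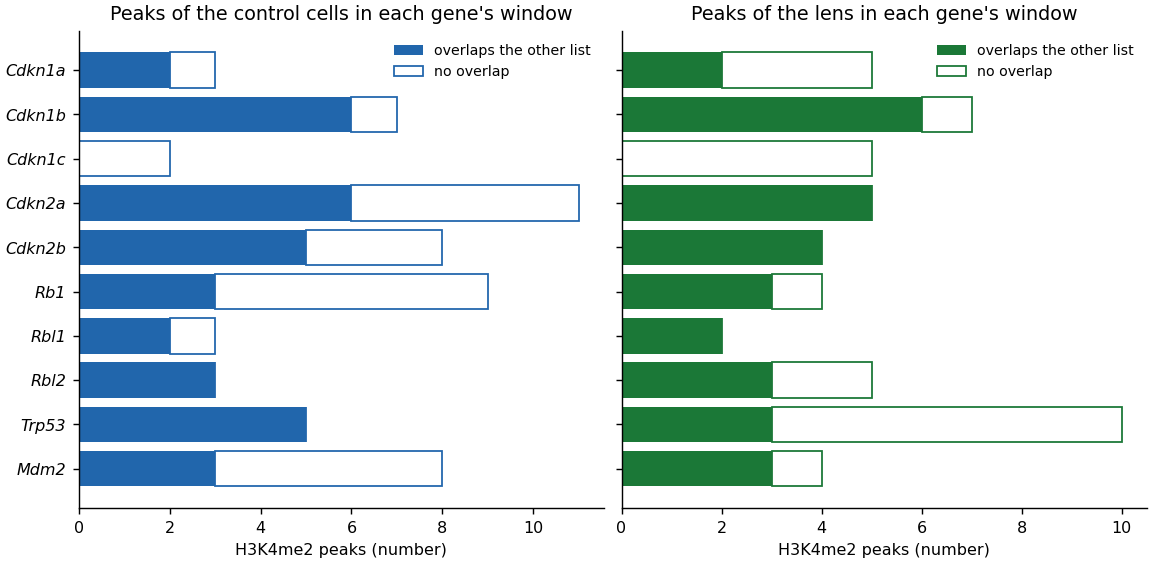
Number of H3K4me2 peaks in each gene's window in control αTN4 cells (left) and in lens (right), filled where a peak overlaps one of the other list and open where it does not; each list is 1 library. Cdkn1c has 2 control and 5 lens peaks with none shared, and Trp53 has 5 control peaks, all shared, and 10 lens peaks, of which 3 are shared.

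Most genes of the wider pathway carried the same promoter marks. Of 50 further genes, 46 had promoter Pol2 (48.0% of all genes), 46 H3K4me3 (49.1%) and 48 H3K4me2 (58.2%) in control cells. KD cells had the same numbers for H3K4me3 (47.8% of all genes) and H3K4me2 (57.1%), and all 50 had H3K4me2 in the lens (66.8%). All 9 cyclins and kinases, all 10 E2F and DP genes, all 6 genes of the MuvB core with Mybl2, and the INK4 genes Cdkn2c and Cdkn2d had Pol2 and H3K4me3 in control cells. The 4 without H3K4me3 were Trp63 and Trp73, the relatives of p53, and the p53 targets Pmaip1 (Noxa, a death-promoting protein) and Eda2r (a receptor). Of these, Trp63 and Pmaip1 also lacked H3K4me2 in αTN4 cells and had it in the lens, as Cdkn1c did. No H3K4me2 or H3K4me3 promoter call of the list differed between control and Pax6 KD cells. Over all genes with a control call, 2.67% lost H3K4me2 and 3.18% lost H3K4me3.

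H3K4me1 at the promoters of the wider pathway was listed at 30 of 50 genes in control (36.0% of all genes) and 12 in Pax6 KD cells (16.8%). Of the 30, 19 lost the call (63.3%, against 56.5% of all genes). Tnfrsf10b, a death receptor, gained one, as did 1.73% of all genes without a control call. The losses were Ccnd1, Cdk6 and Ccne2 among 6 cyclin and kinase genes with a control call, E2f3, E2f4, E2f7 and E2f8 among 7 E2F and DP genes, and Lin9, Lin54 and Mybl2 among 4 of the MuvB group. They also included Usp7 and Trp53bp1, both of the 2 regulators of p53 with a call, and 7 of 11 p53 targets (Bbc3, Gadd45a, Btg2, Perp, Phlda3, Aen and Fas). Cdk6, a kinase that INK4 proteins inhibit, was the only gene of the 50 with a Pax6 peak in its window (chr5:3494076-3494408, fold 11.1). This is near the share of all genes, 2.09%. The Cdk6 promoter had H3K4me2 and H3K4me3 in both αTN4 conditions.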

How the data were processed

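ChIP-seq had 1 library per condition, and groups follow the sample titles. Reads were mapped by the authors with Bowtie (mm9), and they called Pax6, Pol2, H3K4me2 and H3K4me3 peaks with MACS2 and H3K4me1 islands with SICER (window 200 bp, gap 600 bp) at default settings, leaving out blacklisted regions. The aligner version and any pooling are not given in the sources used here, although names inside the control H3K4me2 list mention both replicates. The deposited MACS2 lists give fold enrichment over local background, −log10 of the p-value and q-value, and a display score, which was not used. The deposited SICER lists give the count of ChIP and control reads, fold, p-value and FDR of each island.

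From these lists, percentiles by fold, overlaps of at least 1 bp, Wilson 95% intervals, and promoter calls within 2 kb of 51684 GENCODE vM1 protein-coding transcripts were computed (pandas 2.3.3 and NumPy 2.4.6 in Python 3.11.15, with figures by matplotlib 3.10.9). The overlap and motif steps were tested on simulated data, and the ranking steps were not. Word matches were searched in the 250 bases before each start, on both strands, and p53 pairs within 3 kb. These windows and the mismatch allowance were set after the lists had been read. No p-value was computed, as each condition had 1 library. Intervals cover counting error only. A rank compares regions within a list and not amounts between lists.

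The members and lists of pathway and marker genes were chosen with earlier results of these data known. All members are described. Genes of the pathway list are named where they had no control promoter H3K4me3, where a call differed between control and KD cells or between control and lens H3K4me2, or where a Pax6 peak lay in the window. The alternatives were other promoter distances, only the most upstream start, stricter thresholds (−log10 q of at least 5, FDR of at most 1e-06), 50% coverage as overlap, other windows (gene body only, 50 kb on each side), and ranking by −log10 q or width. RNA-seq and input libraries were not analysed here, so the level of Pax6 RNA after knockdown was not checked. Upstream sequences are shown for 7 of 11 starts, and the others and some marker genes are not reported here.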

Additional observations from a re-analysis of the deposited data

How the results depend on the processing

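Across all results, 60 alternative values stayed within the spread of the value given, or within 1.5 times of a count, and 7 did not. Members with promoter H3K4me1 numbered 2 in control cells within 1 kb (5 within 2 kb), with 1 in KD cells at that distance. In Pax6 KD cells they numbered 2 within 5 kb (1 within 2 kb), with 7 in control cells at that distance. The share of control H3K4me2 peaks kept in KD cells was 95.7% at the stricter threshold and 95.2% in gene bodies alone (88.2% in the windows). Control H3K4me2 peaks with at least 50% of their length covered by lens peaks made up 45.1% (58.8% with any overlap), and lens peaks overlapping control peaks made up 81.3% in gene bodies alone (57.4% in the windows). The median relative log2 ratio of H3K4me1 reads per kb, which moves with island width, was 0.78 in gene bodies alone, over 4 islands, against 0.16 over 11. With only the most upstream start, Cdkn1a dropped out of the promoter counts, which became 8 for Pol2, H3K4me2 and H3K4me3 and 9 in the lens, since its marks lie at a later start. The median change in rank between control and KD cells turned to 0.10 for H3K4me3 when ranked by width. For H3K4me2 it turned to 0.77 by −log10 q, 2.10 by width and 0.25 within 1 kb. The cause of these shifts was not tested. No paired analysis was possible because each condition had 1 library, and for the same reason no library could be left out. Read depth was not known for the peak lists, so an unlisted region may lie just under the threshold of its list.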
